A study of Mus musculus with 22 samples.

Results

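The endoplasmic reticulum of a B cell folds, glycosylates and exports its surface and secreted proteins, and the genes described here are 44 genes of the unfolded protein response and of secretion through that compartment. They were chosen by symbol for these roles and kept where the mean of a table was at least 10 normalized counts, which all 44 passed in each of the 3 tables, among 25676 genes in the culture table, 21880 in the table of experiment 1 and 26097 in that of experiment 2. By role they fall into 17 chaperones and folding enzymes, 8 genes of degradation, 11 of translocation, 4 of glycosylation, and 4 sensors and transcription factors. Genes and roles were chosen with earlier results of these data known, so differences between roles are described and not tested.

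Proteins enter the endoplasmic reticulum through the Sec61 channel, lose their signal peptide to the signal peptidase, receive glycans from the oligosaccharyltransferase and fold with the help of BiP (Hspa5), its co-chaperones, lectin chaperones and protein disulfide isomerases. Unfolded protein is sensed by IRE1 (Ern1), ATF6 and PERK (Eif2ak3, not among the 44), and proteins that do not fold are drawn back to the cytosol and degraded through Sel1l, Syvn1 and the derlins. IRE1 splices the mRNA of Xbp1 to give an active transcription factor. Counts per gene do not measure this splicing.

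The 22 libraries of 7 groups were made from B220+CD93+ cells, the immature B cells of mouse spleen. In culture, such cells from Tcrd-H2BeGFP mice that had no treatment were kept with γδ T cells (3 libraries) or alone (3 libraries). In experiment 1, Tcrd-GDL mice whose γδ T cells were depleted with diphtheria toxin (3 libraries) were set against untreated Tcrd-GDL mice (3 libraries). Experiment 2 holds depleted Tcrd-GDL mice (2 libraries), Tcrd-H2BeGFP mice that received the same toxin as a toxin control (3 libraries), and untreated Tcrd-GDL mice (5 libraries). The toxin was given intraperitoneally at 15 ng per g body weight in 2 doses 48 h apart, and cells were taken on day 8 after the first dose. The labels give no age or sex, and do not say whether Tcrd-H2BeGFP carries a toxin receptor, whether γδ T cells were removed before RNA was taken from the cultures, or how libraries of a group relate, so p-values measure only the spread between these libraries. In the toxin control, strain and toxin cannot be told apart. Between depleted and untreated mice, toxin and loss of γδ T cells cannot be told apart. Depleted mice and the toxin control differ in strain as well.

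Libraries held 17505909 to 28729574 reads in culture, 9794413 to 20343954 in experiment 1 and 22022330 to 36840455 in experiment 2. The B cell genes Cd79a and Cd93 were detected in every library. Some libraries stood apart. Depleted replicate 1 of experiment 1 had 569 normalized counts of the Y-linked Ddx3y and 3.06 of Xist, the RNA of the inactive X chromosome, depleted replicate 2 had 40.0 of Ddx3y, and no other library of that experiment exceeded 1.68 of Ddx3y. The noncoding RNA Gm23935 took 28.7% of the reads of depleted replicate 1, against 16.1% to 20.4% in the other libraries of experiment 1. In culture, replicate 3 of both groups had Ddx3y at 927 with γδ T cells and 817 alone, and Xist at 265 with γδ T cells and 228 alone, against 13311 to 16709 of Xist in the other 4 libraries. Results that rest on these libraries are therefore also given without them. In sorted bulk cells, fewer cells of a type and less RNA per cell cannot be told apart.

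Promoters are shown first, because 7 of the 17 chaperone genes were found to hold a known sequence. The endoplasmic reticulum stress response element (ERSE) was searched as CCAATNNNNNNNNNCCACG on both strands, from 250 bases before to 50 after each start site, in RefSeq's promoters (GRCm38.p6), where 35 of the 44 genes matched. It was found in 8 of the 35 (22.9%), against 37 of all 27025 genes with a promoter (0.137%). The 44 were chosen for roles in this response, so a share above that of all genes is no result of these data. ERSE-II, searched as ATTGG, any base and CCACG, was found in Dnajb11 and Herpud1 and in 12 of all genes (0.0444%). The core TGACGTGG of the unfolded protein response element was found in Txndc5 and Txndc11 and in 193 of all genes (0.714%). CCACG alone, which lies within both ERSE forms and, reversed, within the core, was in 28 of the 35 (80%) and in 9589 of all genes (35.5%), a gene counting once if any of its promoters matched. Each line below gives a match with the 15 bases on either side, the capitals marking the bases that ERSE or ERSE-II fixes.
Calr, chr8:84847060-84847108, plus strand: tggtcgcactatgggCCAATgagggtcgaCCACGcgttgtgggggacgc
Canx, chr11:50325785-50325833, minus strand: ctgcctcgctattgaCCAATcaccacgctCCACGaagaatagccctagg
Creld2, chr15:88819505-88819553, minus strand: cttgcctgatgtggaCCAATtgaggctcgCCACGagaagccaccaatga
Dnajc3, chr14:118937812-118937860, plus strand: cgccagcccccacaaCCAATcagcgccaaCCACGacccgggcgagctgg
Hsp90b1, chr10:86705623-86705671, minus strand: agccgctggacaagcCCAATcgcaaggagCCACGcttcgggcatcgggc
Hsp90b1, chr10:86705518-86705566, plus strand: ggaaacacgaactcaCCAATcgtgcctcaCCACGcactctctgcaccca
Hspa5, chr2:34772010-34772058, plus strand: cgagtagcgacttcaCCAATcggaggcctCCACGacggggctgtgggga
Pdia6, chr12:17266476-17266524, plus strand: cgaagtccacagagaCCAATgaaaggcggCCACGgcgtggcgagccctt
Syvn1, chr19:6046517-6046565, plus strand: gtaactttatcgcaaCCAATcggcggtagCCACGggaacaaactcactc
Dnajb11, chr16:22857837-22857877, plus strand: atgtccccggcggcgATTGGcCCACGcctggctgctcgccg
Herpud1, chr8:94386362-94386402, plus strand: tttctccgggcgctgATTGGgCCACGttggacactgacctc
The 8 genes with ERSE are 7 chaperones and the ubiquitin ligase Syvn1, and Hsp90b1 holds it at 2 places. The match began 65 bases before the start site in Hspa5, 162 in Calr and 98 in Pdia6, and in Dnajb11 the match to ERSE-II lay after the start site.

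The gene with the largest increase in culture, Sdf2l1, has no match to ERSE, ERSE-II or the core in this window. Its promoter is printed for comparison, in the direction of transcription, with the 3 places that read CGTGG, the reverse complement of CCACG, in capitals. The window of Xbp1 holds none of these sequences, CCACG included.
Sdf2l1, chr16:17132334-17132633, minus strand: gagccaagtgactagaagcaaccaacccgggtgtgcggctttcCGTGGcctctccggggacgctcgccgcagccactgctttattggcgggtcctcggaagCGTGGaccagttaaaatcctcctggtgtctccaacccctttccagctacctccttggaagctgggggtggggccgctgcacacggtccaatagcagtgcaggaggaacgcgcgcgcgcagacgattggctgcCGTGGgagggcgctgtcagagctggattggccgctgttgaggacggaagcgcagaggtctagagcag
A match or its absence is a description of these letters and says nothing of a factor's binding.

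With γδ T cells in culture, 8 of the 44 genes were higher than in B cells alone and 0 were lower (limma on log2 of the normalized count plus 1, adjusted p under 0.05 over all 12386 genes tested). These were Xbp1 and 7 chaperones and folding enzymes, Sdf2l1, Calr, Hspa5, Hyou1, Pdia6, Pdia3 and Manf. Of all genes tested, 1.1% were higher and 1.06% lower. The median log2 change of the 44 was 0.20, against -0.00 over all genes tested, and 39 of the 44 were positive. Of the 0 lower, limma's unadjusted p was under 0.05 for 0 genes too, and edgeR and DESeq2 called 0. The libraries with and without γδ T cells did not overlap for 19 genes that were higher and 1 that was lower, against 7.94% and 10.4% of all genes tested.

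Among the sensors and factors, Xbp1, the transcription factor at the end of the IRE1 branch (chr11:5520659-5525893, plus strand, GRCm38), had 1851, 1758 and 1601 normalized counts with γδ T cells and 887, 787 and 800 alone. Every library with γδ T cells lay above every library alone. The means were 1737 ± 126 with γδ T cells and 825 ± 54.5 alone (SD, n = 3 each), a log2 change of 1.07 ± 0.12 (SE; limma adjusted p 0.000246). Ern1, the sensor that splices its mRNA (chr11:106394650-106487852, minus strand), had 239, 223 and 241 with γδ T cells and 166, 227 and 184 alone, and the groups overlapped. Its log2 change was 0.29 ± 0.15 (limma adjusted p 0.466). Atf6, the sensor that is cut in the Golgi to free a transcription factor, had 1067, 1038 and 1205 with γδ T cells and 1106, 1127 and 825 alone (log2 change 0.13, limma adjusted p 0.792). Its relative Atf6b averaged 784 ± 47.2 with γδ T cells and 755 ± 38.7 alone (SD, n = 3 each). Of these 4 genes, Xbp1 alone passed the test.

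The largest change of the 44 was that of Sdf2l1, a resident protein that works with co-chaperones of BiP (chr16:17130138-17132383, minus strand). It had 295, 256 and 227 normalized counts with γδ T cells and 99.1, 77.9 and 84.7 alone. The lowest library with γδ T cells lay above the highest alone by more than the whole range of either group. The log2 change was 1.56 ± 0.16 (SE; limma adjusted p 0.000207), from means of 259 ± 33.8 with γδ T cells and 87.2 ± 10.8 alone (SD, n = 3 each). Calr, the calcium-binding lectin chaperone calreticulin (chr8:84841850-84846934, minus strand), had 10665, 9644 and 9085 with γδ T cells and 5550, 5274 and 5190 alone. Its log2 change was 0.87 ± 0.12 (limma adjusted p 0.00211). Both genes stood clear of overlap in all 6 libraries.

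Hspa5, which encodes BiP, the Hsp70 chaperone that binds unfolded chains and holds the sensors inactive (chr2:34771970-34777547, plus strand), had 5138, 4151 and 3776 with γδ T cells and 2544, 2662 and 2284 alone. The log2 change was 0.79 ± 0.14 (SE; limma adjusted p 0.00881). Hyou1, the Hsp110-type nucleotide exchange factor of BiP (chr9:44379490-44392369, plus strand), had 1641, 1170 and 1453 with γδ T cells and 809, 820 and 830 alone, a log2 change of 0.78 ± 0.13 (limma adjusted p 0.00897). The libraries alone were close together for Hyou1 and those with γδ T cells were spread. Pdia6, a protein disulfide isomerase (chr12:17266545-17284770, plus strand), had 2295, 1836 and 1551 with γδ T cells and 1176, 1249 and 1064 alone (log2 change 0.69 ± 0.15, limma adjusted p 0.0298). Pdia3, the isomerase that works with the lectin chaperones on glycoproteins (chr2:121413775-121438687, plus strand), had 4214, 3310 and 2801 with γδ T cells and 2234, 2346 and 1992 alone (log2 change 0.63 ± 0.15, limma adjusted p 0.0491). Manf, a small protein of the reticulum that cells can also secrete (chr9:106838312-106891979, minus strand), had 1492, 1474 and 1311 with γδ T cells and 866, 820 and 1099 alone (log2 change 0.63 ± 0.13, limma adjusted p 0.03). In these genes no library with γδ T cells fell within the range of the libraries alone.

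**Figure D1:**
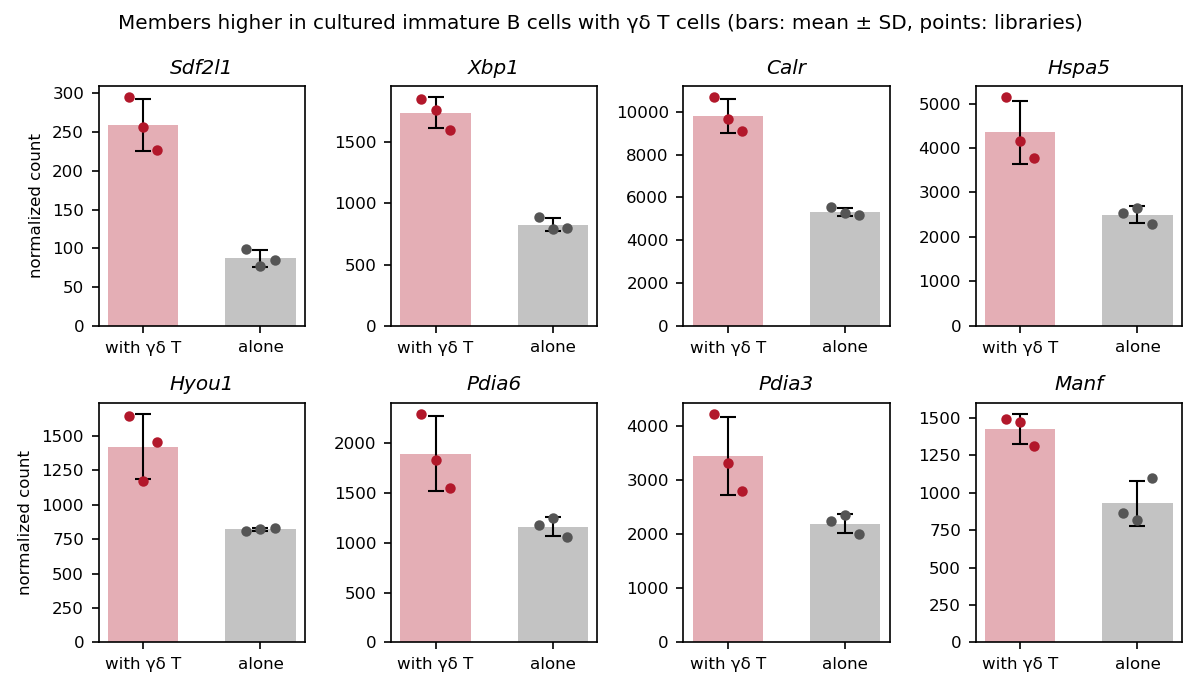
Normalized counts of the 8 genes called higher in culture, with γδ T cells on the left and alone on the right of each panel. Bars are means with SD, points are the 3 libraries of each group, and in each panel all points with γδ T cells lie above all points alone.

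The other 10 chaperones and folding enzymes did not pass. Creld2, a folding factor induced by stress of the reticulum, was closest, at 400, 397 and 301 with γδ T cells and 232, 194 and 262 alone (log2 change 0.67 ± 0.16, limma adjusted p 0.0538). Dnajb11, a co-chaperone of BiP, and Hsp90b1, the Hsp90 of the reticulum (GRP94), had log2 changes of 0.51 and 0.48 (limma adjusted p 0.067 and 0.101), each with no overlap between groups. Reads of Hsp90b1 could in part belong to 1810014B01Rik, which overlaps it. Dnajb9, another co-chaperone and a known target of Xbp1, had 609, 660 and 540 with γδ T cells and 625, 493 and 629 alone (log2 change 0.05, limma adjusted p 0.918), so that the groups overlapped. P4hb, Txndc5 and Txndc11, disulfide isomerases and their relatives, had log2 changes of 0.09, -0.15 and -0.14. Across the 17 chaperones and folding enzymes the median log2 change was 0.51, with a range of -0.15 to 1.56, and the groups did not overlap for 13 that were higher.

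By promoter, the 7 chaperones with ERSE had log2 changes of 0.38 to 0.87 in culture with a median of 0.67, and 3 of them were called. The 8 chaperones whose promoters were searched and held no ERSE had a median of 0.19 and a range of -0.15 to 1.56, and 2 were called. Sdf2l1, with the largest value, is one of the 8 without it. Hyou1 and Manf, both called in culture, had no promoter to search and are in neither group. These medians are a description with no test.

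None of the 8 degradation genes was called in culture, by limma, edgeR or DESeq2, and 0 had an unadjusted p under 0.05. Their median log2 change was 0.07, from -0.18 in Herpud1, which anchors the degradation complex and is a known stress target, to 0.21 in Os9, a lectin that hands misfolded glycoproteins to it. Herpud1 had 1644, 1731 and 1383 with γδ T cells and 1941, 1746 and 1676 alone. Syvn1, the ubiquitin ligase HRD1 whose promoter holds ERSE, averaged 2758 ± 84.5 with γδ T cells and 2617 ± 126 alone (SD, n = 3 each). Edem1, a mannosidase-like protein that marks chains for degradation, averaged 1465 ± 111 with γδ T cells and 1519 ± 52.5 alone (SD, n = 3 each). These groups overlapped, while those of Sel1l, the partner of Syvn1, and Derl2, a derlin, did not, at log2 changes of 0.19 and 0.20.

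None of the 11 translocation genes was called either, by limma, edgeR or DESeq2, and 0 had an unadjusted p under 0.05. Their log2 changes ran from -0.01 in Sec11c, a catalytic subunit of the signal peptidase, to 0.25 in Spcs3, another subunit, with a median of 0.14. Sec61a1, the pore of the channel, averaged 1259 ± 82.8 with γδ T cells and 1221 ± 107 alone (SD, n = 3 each). For Sec61b and Sec61g, the small subunits, reads are uncertain because near-identical copies such as Gm10320 and Gm10177 exist, and likewise for Spcs2 with Spcs2-ps. The 4 glycosylation genes were all positive, at 0.21 to 0.42, with Rpn1, a subunit of the oligosaccharyltransferase, at 1170 ± 59.6 with γδ T cells and 875 ± 74.3 alone (SD, n = 3 each; limma adjusted p 0.0956). The chaperones thus had a higher median change than degradation and translocation genes in culture, which is a description of the counts and medians and not a test between roles.

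**Figure D2:**
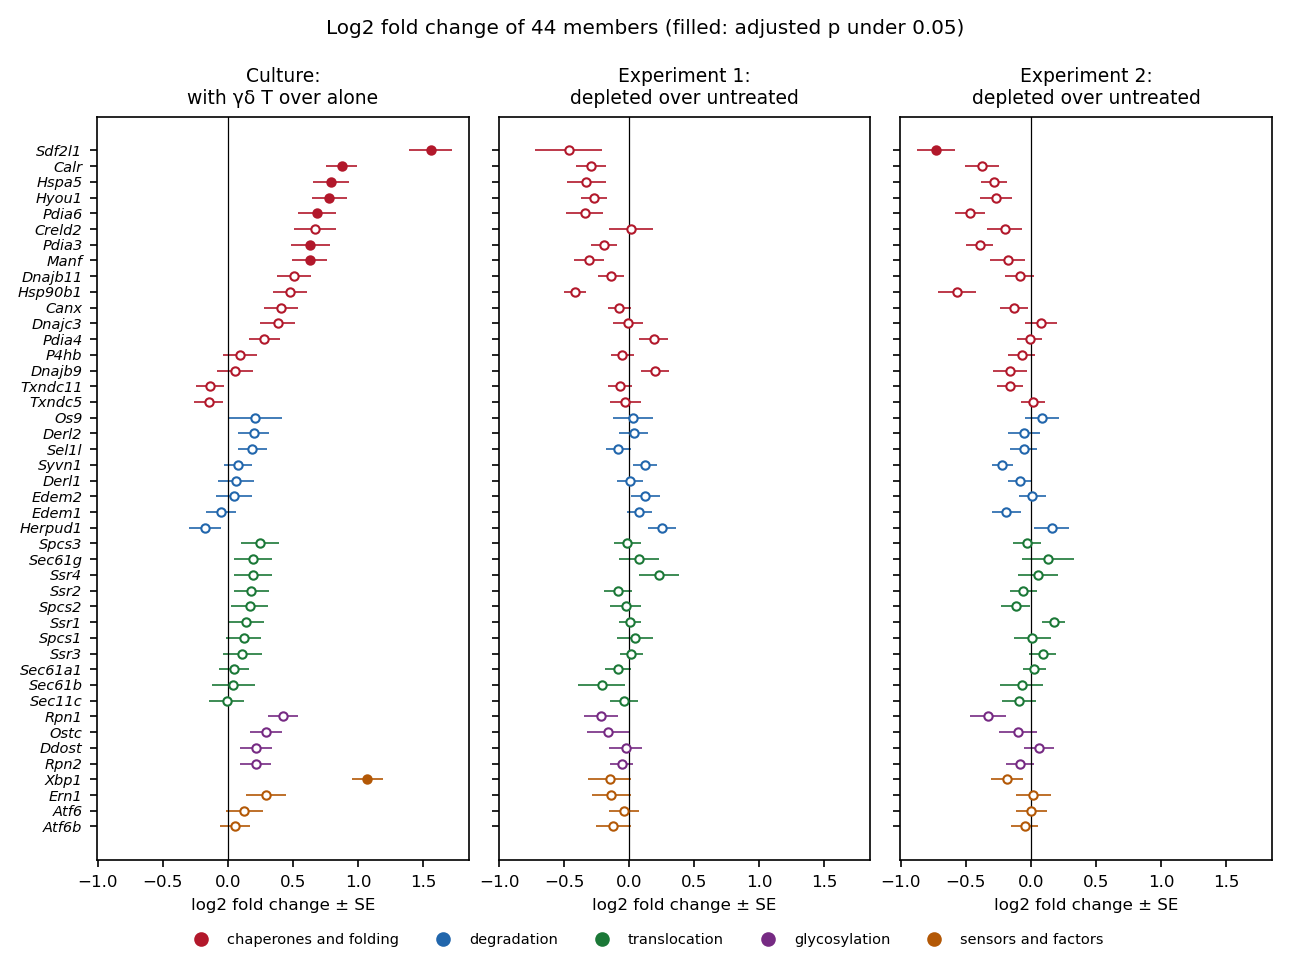
Log2 fold change with SE of each of the 44 genes, by role, with γδ T cells over alone in culture and depleted over untreated in experiments 1 and 2. Filled points passed the test, which 8 genes did in culture, 0 in experiment 1 and 1 in experiment 2.

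Of 70 further genes of these pathways, 66 were tested in culture, 1 was higher and 0 were lower, with a median log2 change of 0.09. Of all genes tested, 1.1% were higher and 1.06% lower, so this count stands near the background. The gene called higher was Trib3, a pseudokinase induced through ATF4, at 153 ± 13.2 with γδ T cells and 64.0 ± 6.11 alone (SD, n = 3 each; log2 change 1.24 ± 0.17, limma adjusted p 0.00191). The other genes of the PERK and ATF4 branch were not called. Ddit3, which encodes CHOP, Atf4 and Eif2ak3 had log2 changes of 0.42, 0.20 and -0.23, with limma adjusted p of 0.139, 0.543 and 0.473.

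Plasma cells carry a large secretory apparatus. Their markers, 5 genes, summed to 3553 to 3965 normalized counts with γδ T cells and 4824 to 6011 alone, with no overlap, and Sdc1 was called lower, 1 of 4 tested. Most of the sum was Irf4, at means of 2600 with γδ T cells and 3685 alone. Igj (Jchain) had 597, 725 and 1330 with γδ T cells and 453, 472 and 1962 alone, and Prdm1 overlapped as well. The part of plasma cells in the culture values was not tested. Tnfrsf17, another of the 5, was at 0 in all 3 libraries with γδ T cells and in 2 of the 3 alone, and at 0.837 in the other. T cell markers summed to 202 to 240 with γδ T cells and 174 to 237 alone, with 0 of 8 tested called and the γδ gene Tcrg-C1 at 0 in all 6 libraries. Trdc was not analysed here. B cell markers summed to 53533 to 58900 with γδ T cells and 54172 to 60188 alone.

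The count of 8 genes in culture depended on single libraries. Leaving out each in turn gave 17 genes without replicate 3 with γδ T cells and 3 without replicate 1 alone, and 4 or 5 without any other; without replicate 3 with γδ T cells 2.21% of all genes were higher and 3.15% lower. Without replicate 3 of both groups, the libraries with Ddx3y, an alternative chosen after seeing the data, 11 genes were higher and 0 lower, against 1.82% and 2.3% of all genes. The 11 were the 8 genes and Creld2, Dnajb11 and Ostc, with Sdf2l1 at 1.63, Xbp1 at 1.11 and Hspa5 at 0.83. Sdf2l1, Xbp1 and Calr passed the test in all 15 alternatives run, and Hspa5 in 13, failing without replicate 1 or replicate 3 alone.

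Depletion was examined next. In experiment 1 none of the 44 genes was called between depleted and untreated mice by limma or edgeR, DESeq2 called 1 lower, and limma's unadjusted p was under 0.05 for 1 higher and 5 lower. Of all 11701 genes tested, 0% were called in either direction. The chaperones had a median log2 change of -0.14, with 14 of 17 negative, the degradation genes 0.05, with 7 of 8 positive, and the translocation genes -0.02, while the median of all genes was -0.01. The groups did not overlap for 1 gene that was higher and 5 that were lower in depleted mice, against 7.29% and 7.88% of all genes, so these counts stand near the background.

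Hsp90b1 had the smallest adjusted p of experiment 1. It had 2176, 2257 and 2190 normalized counts in depleted mice and 3028, 2987 and 2839 in untreated mice, and the groups did not overlap (log2 change -0.42 ± 0.08, limma adjusted p 0.396). Hspa5 had 4980, 3340 and 3492 in depleted mice and 4593, 5361 and 4702 in untreated mice, so that depleted replicate 1 lay within the untreated range (log2 change -0.33 ± 0.15, limma adjusted p 0.568). Sdf2l1 had 109, 63.2 and 96.0 in depleted mice and 106, 168 and 98.3 in untreated mice, with overlap (log2 change -0.47 ± 0.26, limma adjusted p 0.617). Xbp1 had 696, 551 and 504 in depleted mice and 550, 810 and 593 in untreated mice, also with overlap (log2 change -0.15 ± 0.17, limma adjusted p 0.806). Neither sensor stood out in experiment 1. Ern1 had 145, 131 and 155 in depleted mice and 160, 178 and 138 in untreated mice (log2 change -0.14, limma adjusted p 0.804), and Atf6 had 766, 1008 and 886 in depleted mice and 899, 910 and 915 in untreated mice (log2 change -0.04, limma adjusted p 0.929).

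Without depleted replicate 1, the library with the most Ddx3y and the highest share of Gm23935, the counts of experiment 1 differed. With it left out, 10 of the 44 genes were lower and 1 was higher, where 5.28% of all genes were lower and 4.09% higher. The 10 included 7 chaperones, Hspa5 at -0.51, Pdia6 at -0.48, Hsp90b1 at -0.41, Manf and Calr at -0.39, Hyou1 at -0.33 and Pdia3 at -0.27, with Sec61b, Ostc and Rpn1. The gene that was higher was Herpud1, at 0.31. No other library of experiment 1, left out alone, gave a called gene among the 44. Plasma cell markers summed to 2892 to 3408 in depleted mice and 2936 to 3764 in untreated mice of experiment 1, with 0 of 4 tested called and a median log2 change of -0.32. Sdc1 among them had 214, 162 and 215 in depleted mice and 378, 449 and 386 in untreated mice, with no overlap. Proliferation markers summed to 256 to 772 in depleted mice and 612 to 676 in untreated mice, with 0 of 5 tested called and a median log2 change of -0.61. Among the depleted libraries, each of the 5 was highest in replicate 1. Top2a had 456, 165 and 218 in depleted mice and 427, 348 and 395 in untreated mice. The part of plasma cells and of proliferation in the members' values was not tested. The part of sex in the members' values was not tested.

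**Figure D3:**
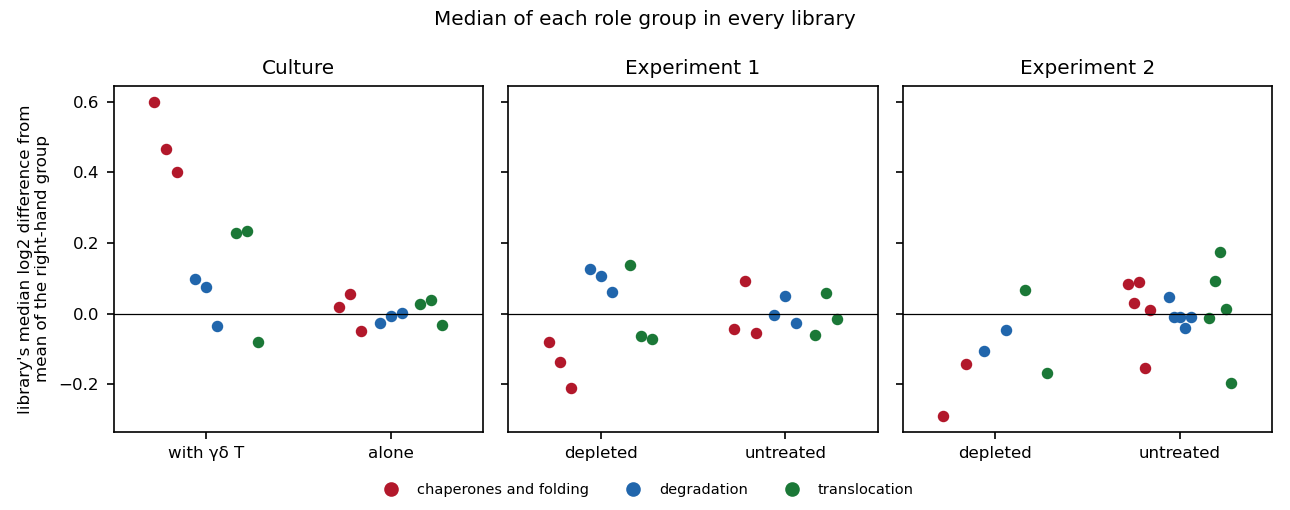
Median log2 difference of each library from the mean of the group on the right, for chaperones, degradation and translocation genes, in culture and in experiments 1 and 2. The chaperone medians of the libraries with γδ T cells were 0.60, 0.47 and 0.40, and those of the depleted libraries were -0.08, -0.14 and -0.21 in experiment 1.

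In experiment 2, 1 of the 44 genes was lower in depleted than in untreated mice and 0 were higher, where 0.172% of all 13364 genes were lower and 0.127% higher (limma; edgeR also called 1 lower and 0 higher, DESeq2 3 and 0, and 0 were higher at limma's unadjusted p under 0.05). The gene was Sdf2l1. It had 239 and 201 in depleted mice and 347, 380, 433, 337 and 333 in untreated mice, and the groups did not overlap. The log2 change was -0.73 ± 0.15 (SE; limma adjusted p 0.0434), from means of 220 ± 27.2 (SD, n = 2) in depleted mice and 366 ± 41.7 (SD, n = 5) in untreated mice. The call rests on the design: with the 2 groups fitted alone it was lost, and likewise without depleted replicate 4 (-0.86), depleted replicate 5 (-0.60) or 7 of the other 8 libraries left out one at a time. It was kept in 8 of 19 alternatives, with limma adjusted p of 0.00201 to 0.294 over the alternatives.

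The other chaperones of experiment 2 did not pass the test. Hspa5 had 8839 and 10402 in depleted mice and 11522, 11919, 12425, 11493 and 11082 in untreated mice (log2 change -0.28 ± 0.10, limma adjusted p 0.325). Calr had 13339 and 15842 in depleted mice and 20470, 21210, 20817, 15865 and 16727 in untreated mice (log2 change -0.38 ± 0.13, limma adjusted p 0.284). In both, every depleted library lay below every untreated one, for Calr by a small margin. Hsp90b1 had 3514 and 5847 in depleted mice and 6752, 6881, 6272, 6046 and 7842 in untreated mice (log2 change -0.57 ± 0.15, limma adjusted p 0.143), and the depleted libraries were far apart. Pdia6 and Pdia3 had log2 changes of -0.47 and -0.39 (limma adjusted p 0.123 and 0.157). The median of the 17 chaperones was -0.18, with 15 negative, against -0.05 for degradation, 0.01 for translocation and -0.00 for all genes. Groups did not overlap for 8 genes that were lower and 1 that was higher, against 6.56% and 5.78% of all genes.

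Xbp1 in experiment 2 had 1397 and 1775 in depleted mice and 1789, 1716, 1840, 1570 and 2058 in untreated mice, with overlap (log2 change -0.18 ± 0.12, limma adjusted p 0.68). Ern1 had 281 and 313 in depleted mice and 331, 305, 281, 290 and 261 in untreated mice, and Atf6 1801 and 2428 in depleted mice and 1990, 2146, 1787, 2240 and 2321 in untreated mice, with log2 changes of 0.02 and 0.00. Both sensors overlapped between the groups. With either depleted library left out, the depleted group is 1 library and the spread comes from the toxin control and untreated libraries, so that the lone library is assumed to vary like them. On that assumption, without depleted replicate 5, 5 genes were lower (Hsp90b1 at -0.94, Pdia6 at -0.63, Rpn1 at -0.58, Pdia3 and Hyou1 at -0.50), where 2.64% of all genes were lower and 1.7% higher, and without depleted replicate 4, 0 were called. Plasma cell markers summed to 5256 to 5856 in depleted mice and 4894 to 7221 in untreated mice, and T cell markers to 294 to 473 in depleted mice and 218 to 1021 in untreated mice. Of the 5 proliferation markers Mki67 was called lower, with 42.8 and 81.6 in depleted mice and 169, 178, 120, 184 and 233 in untreated mice, and the list had a median log2 change of -0.65. Dendritic cell markers summed to 222 to 409 in depleted mice and 61.1 to 267 in untreated mice, with 0 of 4 called. Siglech among them had 274 and 115 in depleted mice and 17.5 to 157 in untreated mice. Erythroid markers summed to 227 to 3410 in depleted mice and 598 to 1714 in untreated mice, and the haemoglobin gene Hbb-bs had 2694 in depleted replicate 4 and 181 in depleted replicate 5. The part of these cells in the members' values was not tested.

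The 3 comparisons of experiment 2 share libraries, so the ones with the toxin control are given beside these and not as separate support. Between the toxin control and untreated mice, 4 of the 44 genes were higher and 11 lower, where 7.32% of all genes were higher and 8.34% lower. The 4 that were higher included both sensors. Ern1 had 402, 421 and 426 in the toxin control, against the untreated values above, with no overlap (log2 change 0.51 ± 0.12, limma adjusted p 0.011). Atf6 had 2735, 2877 and 2985 in the toxin control, again above every untreated library (log2 change 0.46 ± 0.10, limma adjusted p 0.0111). Os9 and Sel1l, of degradation, were higher at 0.51 and 0.28. Hspa5 and Xbp1 did not pass, at -0.18 and 0.10 (limma adjusted p 0.186 and 0.563).

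The 11 that were lower in the toxin control held 7 of the 11 translocation genes, Sec61b, Ssr2, Ssr3, Ssr4, Spcs1, Spcs2 and Spcs3, whose products form the channel, the translocon-associated complex and the signal peptidase. Sec61b had 996, 747 and 1046 in the toxin control and 1469, 1582, 1750, 1451 and 1037 in untreated mice (log2 change -0.64 ± 0.14, limma adjusted p 0.0106), and untreated replicate 8 lay in the toxin control range. Dnajb9 had 885, 796 and 1011 in the toxin control and 1270, 1511, 1533, 1472 and 1181 in untreated mice, with no overlap (log2 change -0.63 ± 0.11, limma adjusted p 0.00467). The others were Ostc at -0.59, Sdf2l1 at -0.47 and Derl2 at -0.44. Sdf2l1 had 279, 253 and 259 in the toxin control, below every untreated library. The median of the 11 translocation genes was -0.34, while that of the chaperones was -0.05. Reads of Sec61b and Spcs2 are uncertain through their copies, and those of Spcs1 through the overlapping Glt8d1.

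Exon length and marker genes moved with the toxin control. Exon length is that of all annotated exons of a gene merged, and is not the length of a transcript. The log2 change of the toxin control over untreated mice had a Spearman correlation with exon length of 0.303 across all 13261 genes with a length, and 0.49 across the 44, a description over genes of the same libraries. Its median was -0.21 for genes under 1 kb, -0.06 from 1 to 5 kb and 0.11 over 5 kb, although Derl2, at 8.05 kb, was among the genes that were lower. In culture and in depleted over untreated mice of experiments 1 and 2 the correlation over all genes was 0.03, -0.07 and -0.09. T cell markers summed to 676 to 1317 in the toxin control and 218 to 1021 in untreated mice, with 5 of 8 tested called higher. Plasma cell markers summed to 6004 to 13434 in the toxin control and 4894 to 7221 in untreated mice, with 0 of 4 tested called. Igj among them had 2144, 1803 and 8788 in the toxin control and 610 to 2813 in untreated mice. Cd93 and Ptprc of the 7 B cell markers, Ncr1 of the 4 NK cell markers and Mki67 and Top2a of the 5 proliferation markers were also called higher. Proliferation markers summed to 975 to 1549 in the toxin control and 511 to 1029 in untreated mice, and NK cell markers to 188 to 289 in the toxin control and 80.4 to 254 in untreated mice. The part of length and of other cells in these results was not tested. The calls against untreated mice depended on single libraries, and fewest were made without toxin control replicate 2. With each of the 10 libraries left out in turn, Dnajb9 was called in all 10 fits. Os9, Ostc and Sec61b were called in 9, Ern1, Atf6 and Derl2 in 8, and Sdf2l1, Spcs2 and Spcs3 in 6. Ssr2, Ssr3 and Ssr4 were called in 4, and Sel1l and Spcs1 in 3. The share of all genes called was not taken for these fits.

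**Figure D4:**
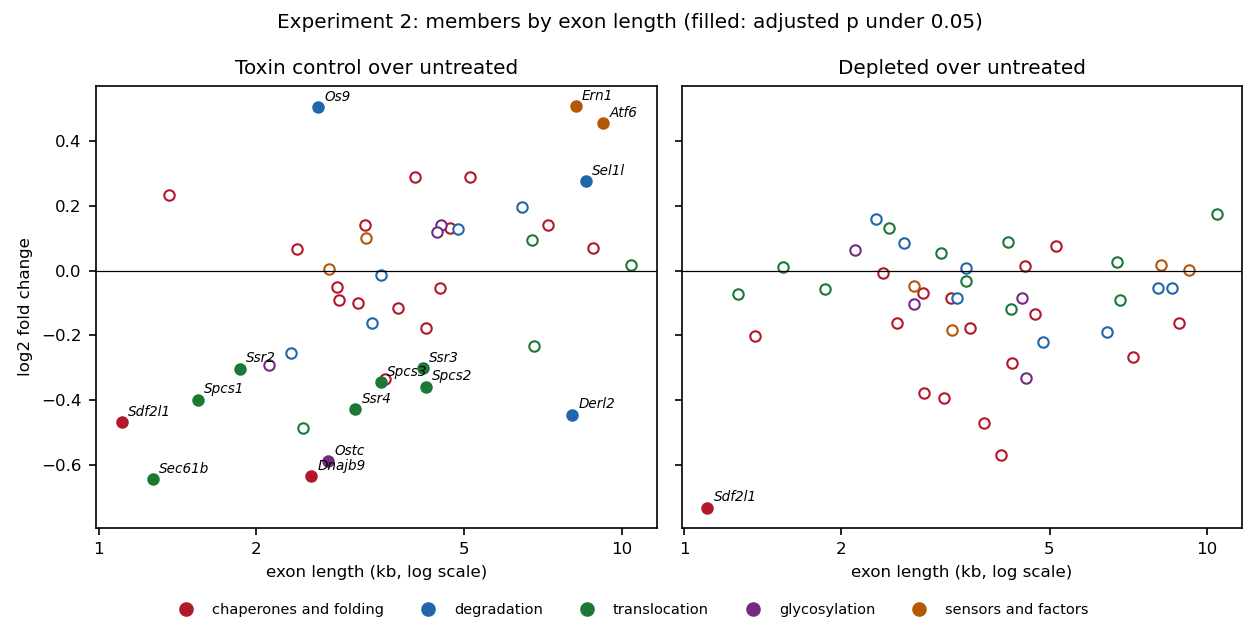
Log2 fold change of the 44 genes in experiment 2 against exon length in kb on a log axis, for the toxin control over untreated mice and for depleted over untreated mice, with genes that passed the test named. In the toxin control, Ern1, Atf6, Os9 and Sel1l were higher and the translocation genes lie below 0 except 2 of 11.

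Between depleted mice and the toxin control, 2 of the 44 genes were higher and 4 lower, where 4.58% of all genes were higher and 4.49% lower. Hsp90b1 was lower at a log2 change of -0.86 ± 0.16 (limma adjusted p 0.00669), with 3514 and 5847 in depleted mice and 8349, 8419 and 7898 in the toxin control, all above both depleted libraries. Syvn1 had 3227 and 3403 in depleted mice and 4268, 4300 and 4105 in the toxin control, with no overlap (log2 change -0.35 ± 0.09, limma adjusted p 0.0248). Ern1 and Atf6 were lower at -0.49 and -0.45, and Dnajb9 and Ssr3 higher at 0.47 and 0.39. The toxin control libraries enter both comparisons, and the toxin control over untreated mice gave 0.51 for Ern1, 0.46 for Atf6, -0.63 for Dnajb9 and -0.30 for Ssr3. Sdf2l1, the gene called against untreated mice, did not pass here, at -0.26 ± 0.16 (limma adjusted p 0.299). Neither did Hspa5, with 8839 and 10402 in depleted mice and 11522, 9500 and 10047 in the toxin control (log2 change -0.11, limma adjusted p 0.572), nor Xbp1, with 1397 and 1775 in depleted mice and 1974, 1662 and 2142 in the toxin control (log2 change -0.28, limma adjusted p 0.192). Over all genes the Spearman correlation of the change with exon length was -0.31 here, and T cell markers summed to 294 to 473 in depleted mice and 676 to 1317 in the toxin control, with 0 of 8 tested called. Of the other marker lists, Cd93 and Ptprc (B cell), Nkg7 (NK cell), Lyz2 (macrophage and monocyte) and Mki67, Top2a and Cenpf (proliferation) were called lower. Proliferation markers summed to 291 to 546 in depleted mice and 975 to 1549 in the toxin control, and macrophage and monocyte markers to 344 to 592 in depleted mice and 825 to 1258 in the toxin control. The part of length and of these cells in the members' values was not tested. With either depleted library left out, the depleted group is 1 library, so only sizes are given. The median log2 difference of the 44 genes from the mean of the toxin control was -0.15 in depleted replicate 4. In depleted replicate 5 it was -0.000945.

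Addition of γδ T cells in culture was set against their removal with toxin in mice. Each experiment had 1 fit of both tables. The effect in culture minus the effect of depletion was above 0 for 11 of the 44 genes with experiment 2 and for 9 with experiment 1, and below 0 for 0 in both (1 gene with experiment 1 and 0 with experiment 2 at an unadjusted p under 0.05; edgeR and DESeq2 called 0). Of all genes, 1.03% were above and 1.32% below 0 with experiment 2, and 0.705% and 0.444% with experiment 1. Sdf2l1 differed by 2.29 ± 0.21 with experiment 2 and 2.03 ± 0.32 with experiment 1 (limma adjusted p 1.15e-06 and 0.00501). Xbp1 differed by 1.26 ± 0.17 and 1.22 ± 0.21, Calr by 1.25 ± 0.17 and 1.17 ± 0.16, and Hspa5 by 1.08 ± 0.17 and 1.12 ± 0.21, all with limma adjusted p under the threshold. Hsp90b1, Pdia3, Pdia6, Manf and Hyou1 passed in both, and Creld2 and Rpn1 with experiment 2. None of the degradation or translocation genes passed in either. The 2 differences share the culture libraries. The count was 7 to 12 with experiment 2, lowest without its depleted replicate 4, and 5 to 13 with experiment 1, lowest without replicate 1 alone or its untreated replicate 2 or 3, and highest without its depleted replicate 1.

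Since the signs of addition and removal are opposite, such a difference is large where removal mirrors addition. A further contrast, chosen after seeing the data, therefore compared presence over absence in both, with γδ T cells minus alone against untreated minus depleted. With experiment 2, Xbp1 differed by 0.89 ± 0.17 (limma adjusted p 0.00664) and Sdf2l1 by 0.83 ± 0.21 (limma adjusted p 0.0461), both larger in culture, and 0 genes were smaller by limma, edgeR or DESeq2, with 1 at an unadjusted p under 0.05, where 0.826% of all genes were larger and 1.03% smaller. Hspa5 differed by 0.51 ± 0.17 (limma adjusted p 0.147) and Hsp90b1 by -0.09 ± 0.21 (limma adjusted p 0.916). With experiment 1, 0 of the 44 passed by limma in either direction, with 9 larger at an unadjusted p under 0.05, while edgeR called 1 larger and DESeq2 3, where 0.479% of all genes were larger and 0.401% smaller. Xbp1 differed by 0.92 ± 0.21 (limma adjusted p 0.054). The effects of depletion in the 2 experiments were also compared after seeing the data, as experiment 2 minus experiment 1. None of the 44 differed by limma, edgeR or DESeq2, with 1 at an unadjusted p under 0.05, and 0% of all genes did, with a median over the 44 of -0.03 and a range of -0.36 to 0.17.

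Levels differed widely between the 44 genes. Per kb of exon, the mean normalized count in untreated mice of experiment 2 was 6603 for Calr, with libraries from 5509 to 7365, ahead of 3219 for Pdia4, a disulfide isomerase, with 3038 to 3408, and 2764 for Hspa5, with 2621 to 2938. These 3 did not overlap with each other. Pdia3 followed at 1923, with 1655 to 2063, and Herpud1 at 1700, with 1373 to 1956, whose ranges overlapped. Ern1 was lowest at 35.9, with 31.9 to 40.5. In culture the same scale gave Calr 3402 with γδ T cells and 1853 alone, Xbp1 535 with γδ T cells and 254 alone, Sdf2l1 234 with γδ T cells and 78.7 alone, and Ern1 28.7 with γδ T cells and 23.6 alone. The gene with the largest relative change was thus not among the most abundant, while Calr was first in each.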

How the data were processed

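The authors deposited normalized counts, a signal per gene and library, in 3 tables. Total RNA was isolated with an RNeasy Plus Micro kit and sequenced from SMART-Seq stranded libraries, per the labels' protocols. The submitters' processing notes name bcl2fastq, STAR 2.5.2b and mm10. How reads were counted, whether strand was used, and which annotation and scaling method were taken is not given in the sources used here. Each table stands on its own scale, so groups were compared within a table only. In each library 100% of values were whole multiples of 1 read within 0.01 reads, and these recovered reads gave the depths.

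Genes with a table mean of at least 10 (12386 in culture, 11701 in experiment 1, 13364 in experiment 2) were fitted with limma 3.58.1 (R 4.3.3, eBayes with trend) on log2(value + 1), the 3 groups of experiment 2 together, with Benjamini-Hochberg adjustment over all genes tested and a threshold of 0.05. Fold changes on this scale understate those of low genes. Differences of effects were limma contrasts on genes tested in both tables. The alternatives, some chosen after seeing the data, were edgeR 4.0.16 and DESeq2 1.42.0 on recovered reads, other pseudocounts and filters, quantile normalization, a replicate block, the 2 groups alone, and leaving out libraries. On recovered reads edgeR called 8 of the 44 genes higher in culture. The scripts were tested on simulated data. Members, gene lists and roles were chosen with earlier results of these data known. By rule, values are given for Hspa5, Xbp1, Ern1 and Atf6 and for genes with an adjusted p under 0.05, up to the 12 highest and 12 lowest; others named were chosen after their values were seen. Coordinates and exon lengths are from GENCODE M21 (GRCm38), in which 98.8% to 98.9% of identifiers were found, and 9 of the 44 genes had no promoter in the RefSeq table. Exon length, also used for values per kb, merges the exons of all transcripts of a gene. It can exceed the length of any transcript, as in Sec61b, at 1.271 kb against 564 bases for the longest protein-coding transcript.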

Additional observations from a re-analysis of the deposited data

How the results depend on the processing

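In culture, leaving out 1 library, or replicate 3 of both groups, gave 3 to 17 genes higher and a median log2 change of 0.17 to 0.28. In experiment 1 leaving out libraries gave 0 to 1 higher and 0 to 10 lower, Xbp1 ran from -0.29 to 0.0161, positive without untreated replicate 2, and DESeq2 called 1 lower. Depleted against untreated mice in experiment 2 gave 0 to 5 lower on leaving out libraries, 3 with DESeq2, 0 with the 2 groups fitted alone and 0 with a replicate block. Depleted mice against the toxin control gave 0 to 8 higher and 0 to 13 lower on leaving out libraries, with a median of -0.15 to -0.000945 and Hspa5 at -0.22 to 0.0111. There DESeq2 called 7 higher and 7 lower, no filter 0 higher and 1 lower, the 2 groups alone 0 and 1, a mean of at least 1 gave 0 higher and quantile normalization 1. The toxin control against untreated mice gave 0 to 5 higher and 1 to 16 lower, and 7 lower with no filter. The difference of culture from depletion gave 7 to 12 with experiment 2 and 5 to 13 with experiment 1. Presence over absence gave 1 to 3 larger with experiment 2 (median 0.10 to 0.24), and 1 with a mean of at least 1, with no filter or with a pseudocount of 5. With experiment 1 it gave 0 to 1 (median 0.14 to 0.27), 3 with DESeq2 and 1 with edgeR. Where a value moved, the cause was not tested, other than that fewer libraries or other genes entered the fit. The share of all genes called was taken only for the fits where it is given above. The other counts of this section therefore cannot be set against a background, and they describe how far the calls vary with the processing, not the members.

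The replicate block gave 10 genes higher in culture, and it changed no other call of the counts than that of experiment 2. Correlations of same-numbered libraries were 0.20, -0.04 and 0.23 in culture, -0.02, -0.04 and 0.05 in experiment 1, and -0.07 and -0.11 in experiment 2. The highest with another number were 0.04, 0.13 and -0.003 in culture, 0.10, 0.06 and 0.06 in experiment 1, and 0.12 and 0.16 in experiment 2. In culture, replicates 1 and 3 thus correlated more within their number, and replicate 3 of both groups had Ddx3y. Pairing in culture was therefore left undecided, and the main fit took the libraries as unpaired. Groups of 2 or 3 libraries limit every comparison, and a p that misses the threshold does not show that values did not differ. For each of the 44 genes, Dixon's test over the 5 untreated libraries of experiment 2 found no outlying library. The test takes genes singly and does not show whether a library differs across many. Untreated replicate 8 had a median log2 difference of -0.20 from the untreated mean over the translocation genes. The other untreated libraries of experiment 2 had -0.01 to 0.17. Its T cell gene Cd3e was at 167, against 29.2 to 57.2 in the others. The groups of 2 or 3 libraries were not tested in this way.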
